A study of Homo sapiens with 18 samples.

Results

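The tubulin genes encode the alpha and beta subunits of microtubules. Members were chosen by gene symbol from a list of 10, TUBA1A, TUBA1B, TUBA1C, TUBA4A, TUBB, TUBB2A, TUBB2B, TUBB3, TUBB4B and TUBB6. Rows were found for 9 of them among the 13661 genes of the table, 4 alpha and 5 beta genes, and TUBB3 is not analysed here. All 9 passed the filter on low counts, which kept 12720 genes. The cells were HEK293, an established human embryonic kidney line, given DMSO vehicle for 12 h. A cytoplasmic lysate was spun through a sucrose gradient and divided into monosomes (mRNA with a single ribosome), light polysomes and heavy polysomes, which carry increasing numbers of ribosomes. Each fraction had 3 replicates, here called gradients 1, 2 and 3, because the labels give the 3 fractions of a replicate number a common batch. The sample titles give replicate numbers and name no gradient, so it is assumed that same-numbered fractions came from 1 gradient. The 9 libraries of cells given 100 µM minocycline are not analysed here, so no treatment was compared.

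An alpha and a beta subunit form the heterodimer from which microtubules are built, and several genes, or isotypes, encode each subunit. Newly made subunits are folded by prefoldin, the chaperonin TRiC and the tubulin folding cofactors. Tubulin mRNAs are also known for autoregulation. When free tubulin is in excess, TTC5 binds the first residues of a nascent tubulin chain on the ribosome and, through SCAPER, brings in the CCR4-NOT deadenylase, which leads to decay of that mRNA. This decay acts on mRNAs that are being translated.

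The start of each coding sequence is shown because it encodes the residues read by TTC5. The first 30 bases were read from GENCODE release 29 transcripts on GRCh38, 5′ to 3′, with the first 4 codons in capitals.
TUBA1A: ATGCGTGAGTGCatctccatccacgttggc
TUBA1B: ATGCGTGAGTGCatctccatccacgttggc
TUBA1C: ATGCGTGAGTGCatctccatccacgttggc
TUBA4A: ATGCGTGAATGCatctcagtccacgtgggg
TUBB: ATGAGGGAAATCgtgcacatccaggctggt
TUBB2A: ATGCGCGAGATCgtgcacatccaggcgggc
TUBB2B: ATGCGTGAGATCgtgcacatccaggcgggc
TUBB4B: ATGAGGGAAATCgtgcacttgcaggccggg
TUBB6: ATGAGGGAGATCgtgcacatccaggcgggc
The alpha and beta starts differ in the fourth codon, which encodes cysteine in the 4 alpha genes and isoleucine in the 5 beta genes. Among 12692 kept genes whose coding sequence begins with a start codon, 28 (0.221%) continued with any arginine codon and any glutamate codon. Adding a cysteine or isoleucine codon in the fourth place left 12 genes (0.0946%). All 9 members were among these 12, and so were the alpha gene TUBA8 and the beta gene TUBB4A.

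Coding sequences were 1332 to 1353 nt long without the stop codon. TUBA1A and TUBA1B were identical at 97.2% of aligned bases and TUBB2A and TUBB2B at 98.1%. TUBA4A matched the other alpha genes at 84.4% to 85.7%, and any alpha gene matched any beta gene at 52.3% to 53.9%.

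The alpha genes TUBA1A, TUBA1B and TUBA1C lie together on chromosome 12 (GENCODE 29, GRCh38): TUBA1B at chr12:49127782-49131397 on the minus strand, TUBA1A at chr12:49184796-49189324 on the minus strand, and TUBA1C at chr12:49188736-49274603 on the plus strand. The annotated spans of TUBA1A and TUBA1C overlap, and whether reads were counted by strand is not given in the sources used here. TUBA4A is at chr2:219249711-219278170 on the minus strand. TUBB is at chr6:30720201-30725426 on the plus strand, and the neighbours TUBB2A and TUBB2B are on the minus strand at chr6:3153669-3157526 and chr6:3224261-3231730. TUBB4B is at chr9:137241213-137243707 and TUBB6 at chr18:12307669-12344320, both on the plus strand. Each principal transcript has 4 exons. The first coding exon holds 3 coding bases in every alpha gene and 57 in every beta gene, so the exon arrangement separates the families as the fourth codon does.

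Because the isotypes are near copies, the share of each principal transcript that a 75-base read could not tell from another gene was computed. It was 60.4% of windows for TUBB2A and 49.5% for TUBB2B, mostly shared between that pair. It was 48.4% for TUBA1B, 27.1% for TUBA1A and 17.0% for TUBA1C. TUBB shared 8.44%, TUBB4B 5.37%, TUBA4A 3.02% and TUBB6 0%. How reads with several matches were counted is not given in the sources used here, so values of TUBB2A, TUBB2B, TUBA1A, TUBA1B and TUBA1C are uncertain where the counting could split them.

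**Figure D1:**
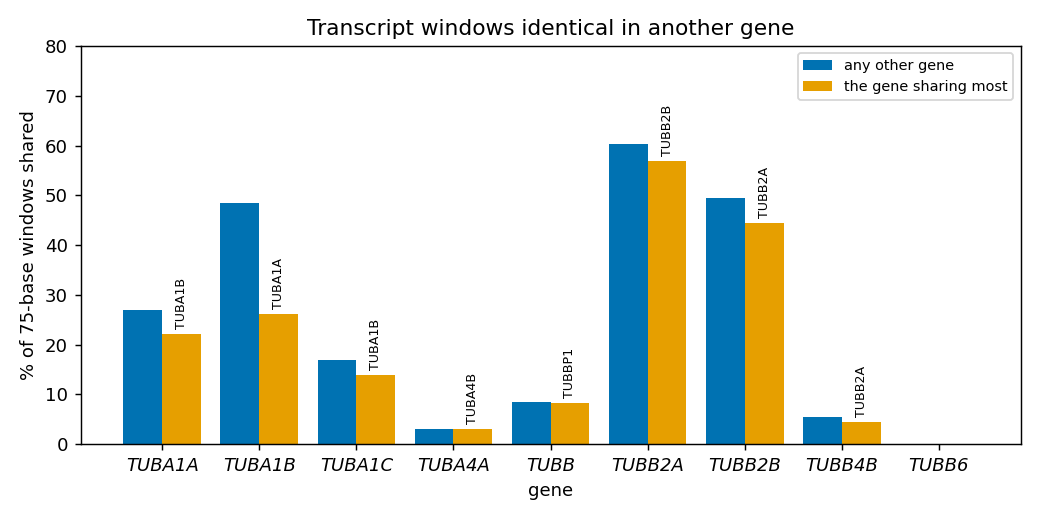
Percent of 75-base windows of each principal transcript that also occur in a transcript of any other gene (blue) or of the gene sharing most (orange, named above the bar). TUBB2A reaches 60.4% and TUBB6 has none.

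Library depth, counted as the reads assigned to the 13661 genes, ran from 13447139 reads (monosome, gradient 2) to 24441159 reads (heavy polysome, gradient 2). Of the HEK293 markers, VIM had 3364 to 13010, NEFM 1321 to 8260 and NEFL 830 to 2781 normalized counts. KRT18 had 79.1 to 569, and KRT8 and INA were low, with 32.8 to 237 and 32.8 to 241. Of the markers of other cells, HBA1 had 13.1 to 182 and COL1A1 11.8 to 90.02, and PTPRC, ALB, CD3E and PECAM1 have no row in the table. The light polysome library of gradient 2 stood apart. On log2 values its correlation was 0.899 and 0.889 with the other light polysome libraries, and 0.928 to 0.953 with the heavy ones. The other light polysome libraries correlated at 0.985. The tests against light polysomes are therefore also given without that library. MRL needs all 3 fractions of a gradient, so it is given without the whole of gradient 2. The summed levels, the isotype proportions and the nearest genes were computed with the library. The labels call the replicates biological without naming separate cultures, and p-values measure the spread between these samples.

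Tubulin mRNAs were a larger share of heavy polysome libraries than of monosome libraries. The 9 genes took 0.128%, 0.194% and 0.109% of the reads assigned to the 13661 genes in monosomes of gradients 1, 2 and 3. In light polysomes the shares were 0.306%, 0.274% and 0.217%. Heavy polysome libraries gave them 0.796%, 0.468% and 0.662% of the reads. The 95% Wilson intervals reach at most 0.00423 percentage points to either side and cover counting error only. Every heavy polysome library was above every light one, and every light one above every monosome one. In bulk libraries the share also depends on how much other RNA a fraction holds, so the following values are scaled to the typical gene of each library.

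Levels differed widely between isotypes. Summed over the 3 fractions and divided by transcript length, TUBA1B had 40771 ± 8938 normalized counts per kb (mean ± SD, n = 3 gradients), the highest of the 9. TUBB was next with 17012 ± 2671, ahead of TUBA1C with 7615 ± 1143 and TUBA1A with 7353 ± 962. TUBA1C was above TUBA1A in each gradient, with 8930, 7059 and 6855 against 8464, 6803 and 6793. The gap between their means was smaller than the SD of either gene, and no test was run. TUBB4B had 3490 ± 1521, TUBB2B 2153 ± 228, TUBB2A 1730 ± 161 and TUBB6 767 ± 125 normalized counts per kb. TUBA4A was the lowest with 95.4 ± 16.8 and rested on 9 to 30 reads in monosomes, 25 to 68 in light polysomes and 145 to 223 in heavy polysomes. TUBA1B and TUBB are the broadly expressed isotypes of dividing cells, and TUBA4A is known mainly from muscle, platelets and nerve.

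The question of the fraction comparison is where each mRNA sat in the gradient relative to the typical gene. Each library was scaled separately, so the shares do not give the part of an mRNA's molecules in a fraction. For all 9 genes heavy polysomes held the largest share of the normalized count in gradients 1 and 3, and gradient 2 differed. TUBB4B, a broadly expressed beta isotype abundant in ciliated cells, had 62.4%, 59.9% and 67.7% of its normalized count in heavy polysomes of gradients 1, 2 and 3. It was the member whose heavy share varied least. TUBB, the main beta isotype of these cells, had 57.3%, 31.8% and 58.9% in heavy polysomes and 21.6%, 48.8% and 20.3% in monosomes, so that monosomes led in gradient 2. TUBA1B had 55.6%, 35.4% and 57.8% in heavy polysomes against 22.5%, 39.5% and 19.4% in monosomes, again with monosomes ahead in gradient 2. The median kept gene had 30.8%, 30.9% and 31.3% in monosomes and 32.8%, 32.3% and 32.3% in heavy polysomes. These shares are close to even because every library was scaled to its typical gene, so they do not measure where a typical mRNA sat.

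Heavy shares over the 9 genes ran from 49.5% to 77.0% in gradient 1, 31.8% to 59.9% in gradient 2 and 50.2% to 77.9% in gradient 3. Monosome shares ran from 8.19% to 27.2%, 22.3% to 48.8% and 8.03% to 26.1%. Light polysome shares had member medians of 21.1%, 20.4% and 20.7%. The light share of TUBA4A varied more, with 14.8%, 22.0% and 11.2%. All 9 members had their lowest heavy share in gradient 2, and 8 had their highest monosome share there. The exception was TUBB4B, with 22.4% of its count in monosomes of gradient 1 and 22.3% in those of gradient 2. TUBB6, the beta isotype with no shared window, had the highest mean light share, 26.6% ± 3.52 (SD, n = 3). Monosome and heavy polysome shares of 1 gradient add up with the light share, so they are not independent values.

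**Figure D2:**
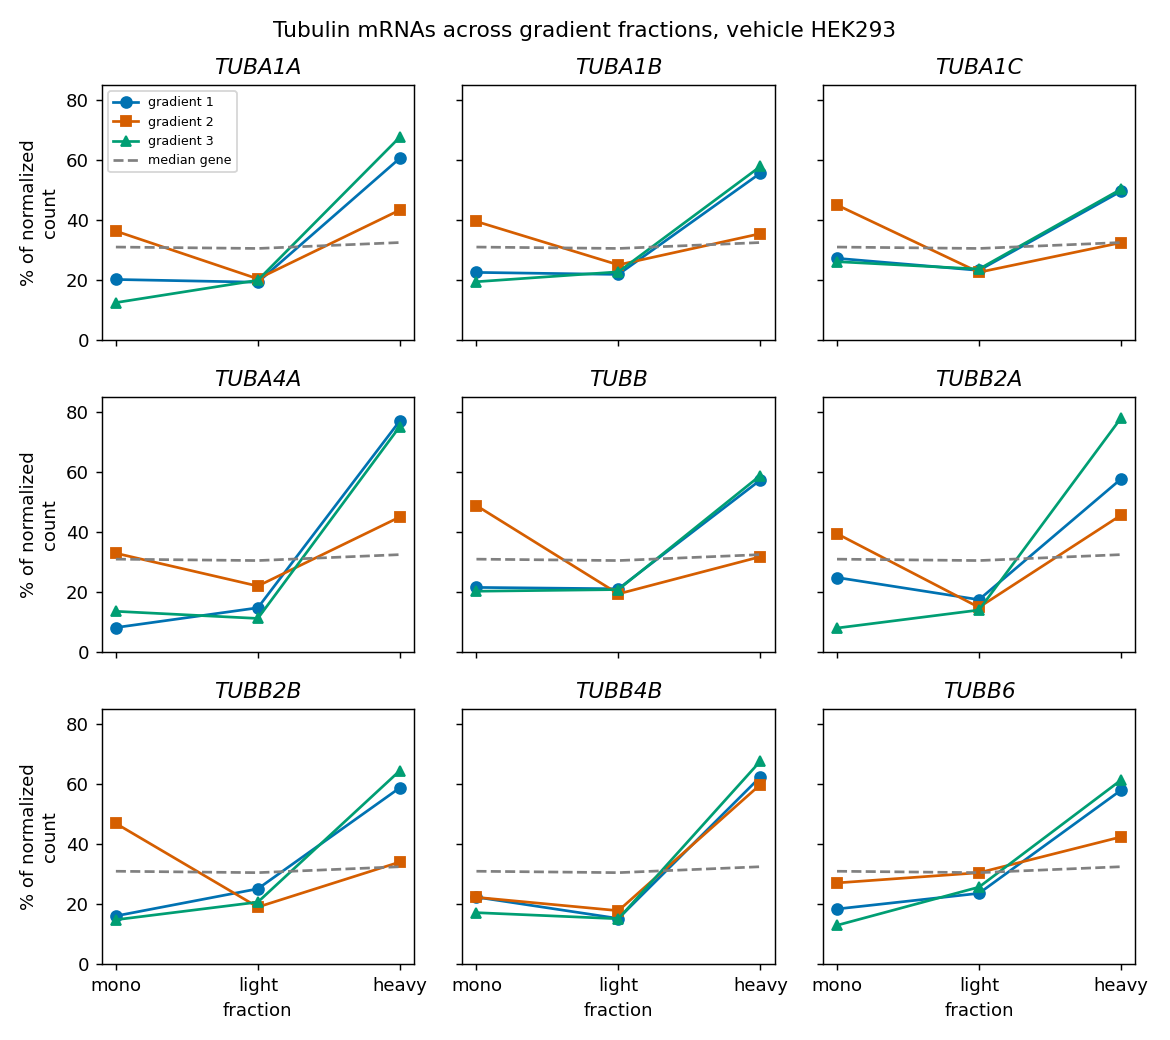
Percent of a gene's normalized count in monosomes, light and heavy polysomes (x axis), with 1 line for each gradient and a dashed line for the median of the genes kept, averaged over gradients. Heavy polysomes lead for every gene in gradients 1 and 3, and TUBB4B in gradient 2 has 59.9% there against 31.8% for TUBB.

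In heavy polysomes against monosomes, TUBA1A, TUBA4A, TUBB2A, TUBB2B, TUBB4B and TUBB6 were higher, 6 of 9 members, and none was lower. The test was limma on log2(normalized count + 1) over the 9 libraries with Benjamini-Hochberg adjustment at 0.05, and 24.7% of all genes tested passed it in this direction. The median log2 difference was 1.43 over the 9 members and 0.13 over all genes tested. In 5 members, TUBA1A, TUBA4A, TUBB2A, TUBB4B and TUBB6, every heavy polysome library was above every monosome library, which 31.4% of all genes tested also showed.

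Among the alpha genes TUBA4A had the widest gap, with normalized counts of 19.4, 71.1 and 22.6 in monosomes and 183, 97.1 and 125 in heavy polysomes. The groups did not overlap, although gradient 2 was the highest monosome and the lowest heavy library. The log2 difference was 2.01 ± 0.51 (SE), with an adjusted p of 0.00541 by limma. TUBA1A, an isotype prominent in developing neurons, had 3271, 4729 and 1623 in monosomes and 9814, 5642 and 8793 in heavy polysomes, without overlap and with a log2 difference of 1.43 ± 0.44 (limma, adjusted p = 0.0153). TUBA1B had 18699, 22154 and 11650 in monosomes and 46132, 19877 and 34675 in heavy polysomes, and the groups overlapped. Its log2 difference of 0.91 ± 0.51 did not pass (limma, adjusted p = 0.152), nor did that of TUBA1C, 0.44 ± 0.42 (limma, adjusted p = 0.400). A missed threshold does not show that these genes were alike in both fractions.

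Among the beta genes TUBB6 had the smallest adjusted p. Its normalized counts were 345, 374 and 194 in monosomes and 1086, 586 and 916 in heavy polysomes, with all heavy libraries higher. The log2 difference was 1.51 ± 0.35 (limma, adjusted p = 0.00306). TUBB4B had 1908, 855 and 819 in monosomes and 5328, 2296 and 3223 in heavy polysomes. The gap within a gradient was alike in the 3 gradients, at 1.48, 1.42 and 1.98 on the log2 scale, and the fitted difference was 1.63 ± 0.44 (limma, adjusted p = 0.00779). TUBB2A had 742, 978 and 226 in monosomes and 1720, 1131 and 2194 in heavy polysomes, a log2 difference of 1.56 ± 0.47 (limma, adjusted p = 0.0142). Its near copy TUBB2B had 778, 2014 and 581 against 2842, 1462 and 2527, where the libraries of gradient 2 overlapped the other group. The log2 difference of TUBB2B was 1.17 ± 0.45 (limma, adjusted p = 0.0429), and with the replicate number as a block the adjusted p was 0.0508. TUBB had 11514, 21088 and 8048 in monosomes and 30614, 13732 and 23342 in heavy polysomes, overlapping groups and a log2 difference of 0.78 ± 0.50 (limma, adjusted p = 0.215).

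The number of members that passed depended on gradient 2. Within gradient 2 the log2 difference of heavy polysome and monosome was negative for TUBB (-0.62), TUBA1C (-0.47), TUBB2B (-0.46) and TUBA1B (-0.16). In gradients 1 and 3 it was positive for all 9 genes, from 0.86 for TUBA1C in gradient 1 to 3.27 for TUBB2A in gradient 3. Without gradient 2 all 9 members passed, beside 31.4% of all genes. Without gradient 1 only TUBB4B passed, beside 9.99% of all genes, and without gradient 3 only TUBA4A did, beside 13.8%. Leaving out single libraries gave 3 members, TUBA4A, TUBB4B and TUBB6, without the monosome or the heavy polysome library of gradient 3. It gave 4 without the heavy polysome library of gradient 1, 5 without the monosome library of gradient 1 and 6 without any other library, while the share over all genes ran from 17.9% to 29.3%. The adjusted p of TUBB4B ran from 0.00154 to 0.069 over the 19 alternatives, and that of TUBB6 from 7.84e-05 to 0.0928.

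**Figure D3:**
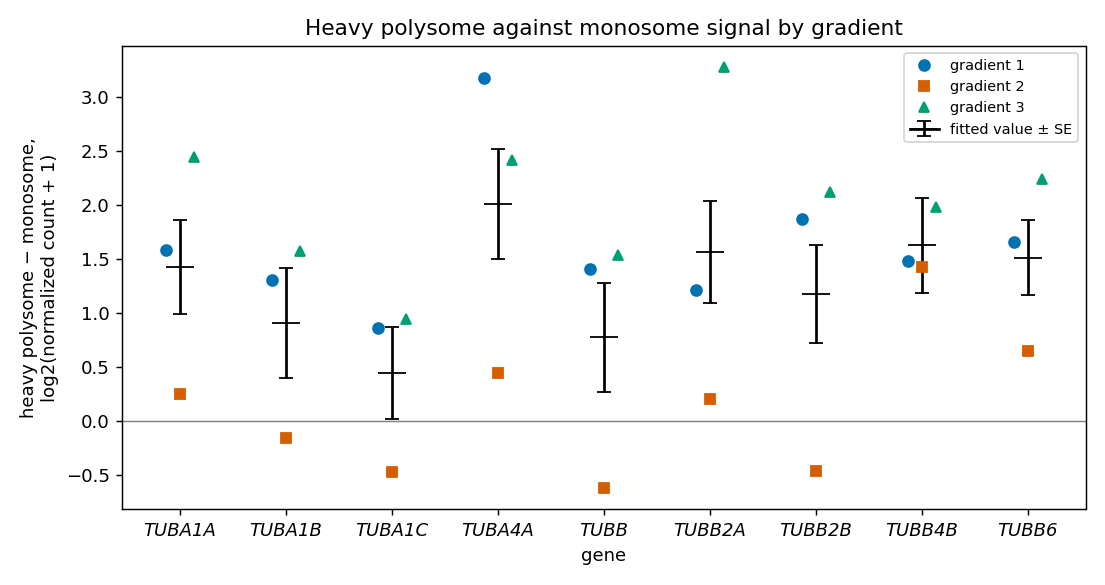
Difference between heavy polysome and monosome signal on the log2(normalized count + 1) scale for each gene, with symbols for the 3 gradients and a black bar for the fitted value ± SE from limma. Gradient 2 lies lowest for every gene and below 0 for TUBA1B, TUBA1C, TUBB and TUBB2B.

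Between light polysomes and monosomes no tubulin mRNA was called. None of the 9 passed by limma, where 18.7% of all genes passed in either direction, and none had an unadjusted p under 0.05. So few members cannot set the lack of calls apart from that share. The SEs were 0.35 to 0.51, so a missed threshold does not show that the fractions were alike. Neither edgeR nor DESeq2 called any of them. Log2 differences ran from -0.46 for TUBA1C (adjusted p = 0.490) to 0.50 for TUBB6 (adjusted p = 0.339). Without the light polysome library of gradient 2 none passed either, and the differences ran from -0.39 to 0.49.

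Between light and heavy polysomes some of the tubulin mRNAs differed. Heavy polysomes were above light polysomes of the same gradient for all 9 members in 3 of 3 gradients. How many of all genes did the same was not computed, so this direction count has no background. By limma 6 members passed, TUBA1A, TUBA4A, TUBB2A, TUBB2B, TUBB4B and TUBB6, against 14.7% of all genes in this direction, and the median log2 difference was 1.23 against 0.05 over all genes tested. TUBB4B had 1301, 685 and 722 normalized counts in light polysomes, all below its 2296 to 5328 in heavy polysomes. Its log2 difference was 1.98 ± 0.44 (limma, adjusted p = 0.00781), and 1.81 without the light polysome library of gradient 2 (adjusted p = 0.00447). TUBB2A had 521, 370 and 395 in light polysomes and a difference of 1.93 ± 0.47 (limma, adjusted p = 0.0103), or 1.84 without that library (adjusted p = 0.00828). TUBA4A had 35.0, 47.5 and 18.7 and a difference of 2.02 ± 0.51 (limma, adjusted p = 0.0117), or 2.30 without it (adjusted p = 0.00288).

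TUBA1A differed by 1.5 ± 0.44 on the log2 scale (limma, adjusted p = 0.0202) and TUBB6 by 1.01 ± 0.35 (limma, adjusted p = 0.0398). Without the light polysome library of gradient 2 the values were 1.47 (adjusted p = 0.0139) and 1.02 (adjusted p = 0.0294). TUBB2B was at the threshold with 1.23 ± 0.45 (limma, adjusted p = 0.0492). Its adjusted p was 0.0561 with the replicate block and 0.0585 without the light polysome library of gradient 2, which left 5 members, beside 24.7% of all genes in the latter. TUBB (1.22 ± 0.50), TUBA1B (1.06 ± 0.51) and TUBA1C (0.90 ± 0.42) did not pass. All 9 passed without gradient 2, where 29.9% of all genes were higher. None passed without gradient 1 or without gradient 3, but there 0 and 1 of all 12720 genes were higher. Without single libraries 2 members, TUBB2A and TUBB4B, passed when the heavy polysome library of gradient 1 or the light one of gradient 3 was left out. TUBA4A joined them when the heavy polysome library of gradient 3 or the light one of gradient 1 was left out. Without any other single library 4 to 6 passed. The share over all genes ran from 2.51% to 24.7% over these 9 settings.

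Mean ribosome load (MRL) puts the 3 shares on 1 scale, with weights of 1 ribosome for monosomes, 2.5 for light and 6 for heavy polysomes. The median gene had an MRL of 3.17, 3.17 and 3.16 in gradients 1, 2 and 3. That level also follows from scaling every library to its typical gene, so MRL ranks genes and is not an absolute number of ribosomes. Members ran from 3.83 to 5.07 in gradient 1, 2.88 to 4.26 in gradient 2 and 3.87 to 5.11 in gradient 3. The order by mean MRL was TUBA4A with 4.53 ± 0.82 (SD, n = 3), TUBB4B with 4.41 ± 0.18, TUBB2A with 4.25 ± 0.81 and TUBA1A with 4.16 ± 0.62. TUBB6 followed with 4.09 ± 0.46, TUBB2B with 3.95 ± 0.84, TUBA1B with 3.83 ± 0.59, TUBB with 3.77 ± 0.77 and TUBA1C with 3.55 ± 0.51. No neighbours in this order kept the same order in 3 of 3 gradients, and each neighbouring difference was smaller than its SD over gradients.

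Some members farther apart kept their order in every gradient. Among the alpha genes TUBA4A was above TUBA1A, TUBA1A above TUBA1B and TUBA1B above TUBA1C in 3 of 3 gradients. On the MRL scale TUBA1A exceeded TUBA1B by 0.209, 0.323 and 0.446, and TUBA1B exceeded TUBA1C by 0.282, 0.188 and 0.366. These differences were larger than their SDs of 0.118 and 0.0894. Among the beta genes TUBB was below TUBB2B, TUBB4B and TUBB6 in 3 of 3 gradients, by means of 0.173 ± 0.0922 (SD), 0.634 ± 0.654 and 0.321 ± 0.332. The last 2 means were smaller than their SDs. The near copies TUBB2A and TUBB2B had no fixed order, with TUBB2A lower by 0.17 in gradient 1 and higher by 0.516 and 0.573 in gradients 2 and 3. With 3 gradients these orders are descriptions, with no test.

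Against the median gene, log2 MRL was higher for TUBA1A, TUBA4A, TUBB2A, TUBB4B and TUBB6, 5 of 9 members, by limma over the 3 gradients, and 22.0% of all genes passed in this direction. TUBB4B exceeded the median gene by 0.46, 0.42 and 0.55 in the 3 gradients, a mean of 0.48 ± 0.07 (SE; limma, adjusted p = 0.00177). TUBA4A exceeded it by 0.68, 0.17 and 0.64, a mean of 0.50 ± 0.11 (limma, adjusted p = 0.00657). TUBA1B (0.26, adjusted p = 0.0685), TUBB2B (0.29, adjusted p = 0.0795), TUBB (0.23, adjusted p = 0.151) and TUBA1C (0.16, adjusted p = 0.249) did not pass by limma. Each of these 4 was below the median gene in gradient 2 and above it in gradients 1 and 3. All 9 passed without gradient 2, 3 without gradient 1 and 2 without gradient 3, where 29.1%, 9.89% and 14.4% of all genes passed in this direction. TUBA4A and TUBB4B passed in each of these.

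**Figure D4:**
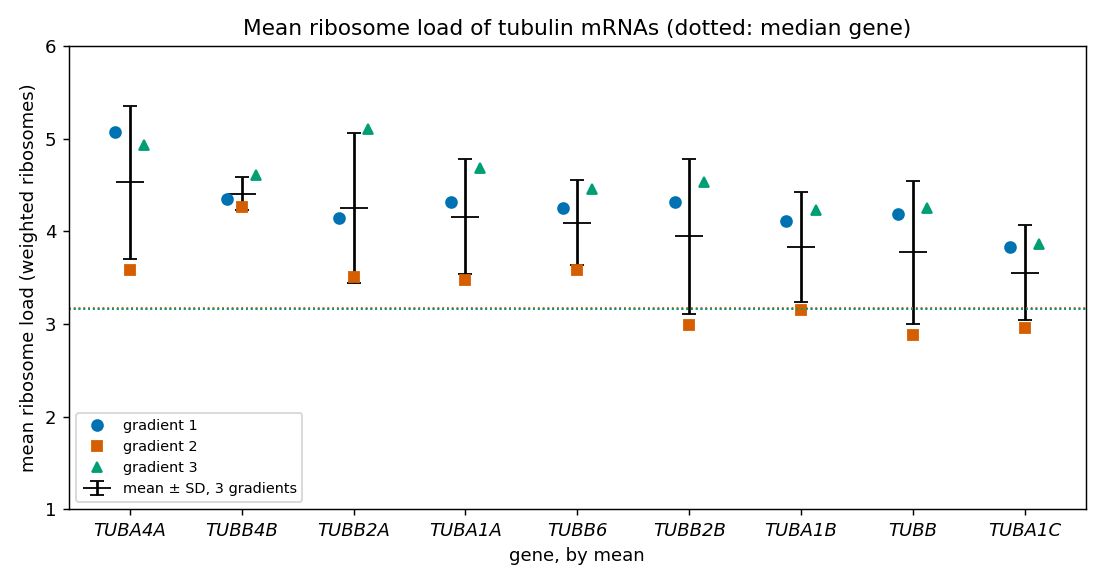
Mean ribosome load of each tubulin mRNA, ordered by its mean, with symbols for the 3 gradients, black bars for mean ± SD and dotted lines for the median gene of each gradient. TUBB4B lies between 4.26 and 4.61, and TUBA1B, TUBA1C, TUBB and TUBB2B lie under the median gene in gradient 2.

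Coding length varies little within the family, and genes of the same coding length give its surroundings. The 128 kept genes with coding sequences of 1332 to 1353 nt, tubulins included, had a median mean MRL of 3.42, with 2.21 and 4.23 as the lowest and highest deciles. TUBA4A, TUBB4B and TUBB2A lay above that upper decile, and all 9 members lay above the median. The authors' deposited strict class of fraction enrichment was heavy polysome for TUBA1A, TUBA4A, TUBB2A, TUBB4B and TUBB6. It was unassigned or mixed for TUBA1B, TUBA1C, TUBB and TUBB2B.

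Within a library, the proportions of the isotypes do not depend on the scaling between libraries. The alpha and beta pools hold the members only. The kept isotypes TUBA8 and TUBB4A, with mean normalized counts of 38.3 and 348, are left out. TUBA1C made up 15.5%, 16.5% and 18.3% of alpha-tubulin reads per transcript length in monosomes of gradients 1, 2 and 3 and 11.7%, 13.1% and 11.7% in heavy polysomes. The groups did not overlap, and the difference of heavy polysomes and monosomes was -3.90, -3.38 and -6.54 percentage points. Light polysomes lay between with 13.7% to 14.3%. TUBA1A made up 10.9%, 12.8% and 8.64% in monosomes and 13.5%, 16.8% and 15.6% in heavy polysomes, higher in 3 of 3 gradients and without overlap. TUBA1B kept 69.8% to 75.0% in every library, with no direction shared by the gradients. The mean differences of TUBA1C and TUBA1A were close in size and opposite in sign, -4.61 ± 1.70 and 4.53 ± 2.24 points (SD, n = 3). Those of TUBA1B and TUBA4A were -0.0363 and 0.114 points. The alpha shares of a library add up to a fixed total, so the mirrored values of TUBA1C and TUBA1A follow from this and are not independent. TUBA1A and TUBA1C share windows and overlap in the annotation, and the part of this in the proportions was not tested.

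Among beta-tubulin reads per transcript length TUBB made up 66.4%, 77.3% and 74.7% in monosomes and 64.7%, 62.2% and 63.4% in heavy polysomes, lower in 3 of 3 gradients and without overlap. TUBB4B made up 17.9%, 5.12% and 12.4% in monosomes and 18.4%, 17.0% and 14.3% in heavy polysomes. Its share was higher in heavy polysomes in 3 of 3 gradients, by 0.408, 11.9 and 1.90 points, and the groups overlapped. TUBB6 was 2.22% ± 0.408 (SD, n = 3) in monosomes, 4.12% ± 0.588 in light and 3.21% ± 0.234 in heavy polysomes. Summed over the members, alpha over beta reads per length was 1.89 to 2.43 in monosomes, 2.41 to 2.64 in light and 2.12 to 2.14 in heavy polysomes.

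**Figure D5:**
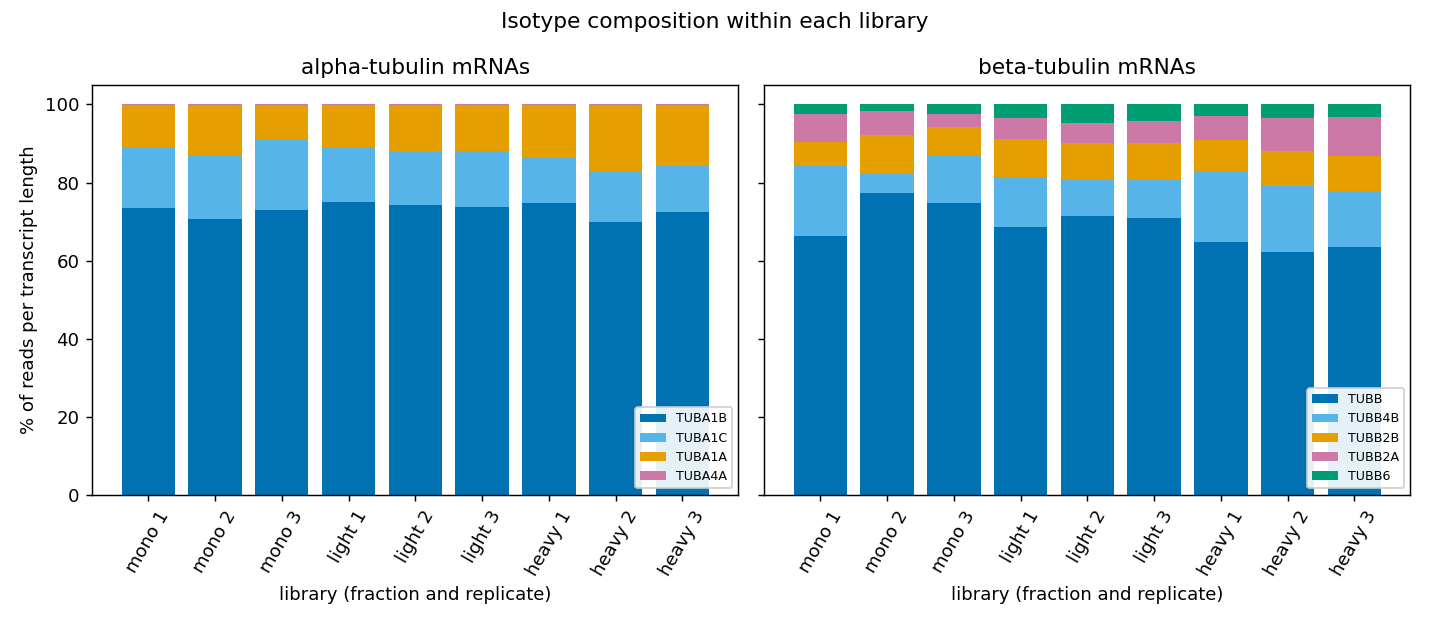
Share of each isotype (stacked bars, percent of reads per transcript length) among the alpha-tubulin members (left) and the beta-tubulin members (right) in the 9 libraries. TUBA1C has 15.5% to 18.3% in monosomes and 11.7% to 13.1% in heavy polysomes, and TUBB has 66.4% to 77.3% and 62.2% to 64.7%.

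The genes most like the leading isotypes were found by Euclidean distance over the 9 percentages, among 6359 other kept genes with a mean normalized count in the upper part of the range, at or above the median gene. The 5 nearest to TUBA1B were DAZAP1, WARS2, DDX19B, CWC27 and GDI2, at 5.49 to 8.77 percentage points, where the median gene was at 50.9. TUBB was 21st in that order at 11.9 points, and TUBA1C 43rd. The 5 nearest to TUBB were FAH, TECR, GDI2, TUBB2B and DDOST, at 7.41 to 11.7 points, with the median gene at 57.1. TUBB2B had an MRL of 3.95 ± 0.84 beside 3.77 ± 0.77 for TUBB. TUBB4B was 34.5 points from TUBA1B and 40.9 from TUBB, and ranked 1290th and 1117th.

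Of 12 other tubulin genes, 6 were kept, with 2 higher and 2 lower in heavy polysomes than in monosomes by limma. Over all genes tested, 24.7% were higher and 24.4% were lower. TUBB4A, a beta isotype best known from brain, had an MRL of 4.57 ± 0.24 (SD, n = 3) and a log2 difference of 2.07 ± 0.34 (SE; limma, adjusted p = 0.000362). The gamma-tubulin gene TUBG1, which nucleates microtubules, had an MRL of 4.56 ± 0.74 and a log2 difference of 2.01 ± 0.46 (limma, adjusted p = 0.0031). TUBA8 and the epsilon-tubulin gene TUBE1 were lower, by -3.22 and -1.18 on the log2 scale, with MRLs of 1.70 ± 0.19 and 2.53 ± 0.18. TUBA8, whose first 4 codons encode the same residues as those of the alpha members, had MRLs of 1.88, 1.71 and 1.496 in the 3 gradients. All were below the median gene, at a mean normalized count of only 38.3. TUBB4A, whose first 4 codons also follow the pattern of the members, had MRLs of 4.44, 4.42 and 4.85, all above the median gene.

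Of the 7 tubulin folding cofactors kept, 2 were higher in heavy polysomes and 2 were lower, near the 24.7% and 24.4% of all genes tested, with a median log2 difference of -0.25. TBCB had an MRL of 4.15 ± 0.88 and TBCD, which with its partners assembles the heterodimer, 3.87 ± 0.45. TBCA, which holds free beta-tubulin, had 2.01 ± 0.06, and its log2 difference was -2.45 ± 0.44 (limma, adjusted p = 0.000667). TBCC had 2.73 ± 0.25 and a log2 difference of -0.88 ± 0.30 (limma, adjusted p = 0.0247). Of the 14 genes of TRiC and prefoldin, 7 were higher and 3 were lower, with a median of 0.95. The TRiC subunits CCT7 and CCT5 had MRLs of 4.59 ± 0.51 and 4.41 ± 0.12, and the prefoldin subunits PFDN4 and PFDN5 had 1.74 ± 0.25 and 1.96 ± 0.65.

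For tubulin mRNA autoregulation, the list held TTC5, SCAPER and CCR4-NOT subunits. Of its 13 genes, 7 were higher in heavy polysomes and 1 was lower, with a median log2 difference of 1.12. Over all genes tested, 24.7% were higher and 24.4% were lower. CNOT11 had an MRL of 4.34 ± 0.39 and CNOT3 4.29 ± 0.12. CNOT7, a deadenylase subunit, had 1.89 ± 0.18 and a log2 difference of -2.99 ± 0.47 (limma, adjusted p = 0.000299), and CNOT6, another deadenylase, had 2.91 ± 0.18. Of 10 genes of the gamma-tubulin ring complex, 3 were higher and 4 were lower, beside the same 24.7% and 24.4% of all genes tested. TUBGCP2 had an MRL of 4.41 ± 0.39 and TUBGCP4 3.94 ± 0.15, while the small subunits MZT2A and MZT2B had 1.80 ± 0.51 and 1.81 ± 0.47.

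Of 17 tubulin-modifying enzymes, 2 were higher and 8 were lower, with a median log2 difference of -0.36. For this list and the next, the shares over all genes tested were 24.7% higher and 24.4% lower. TTLL12 had an MRL of 4.65 ± 0.48 and TTLL7, a polyglutamylase, 3.998 ± 0.45. TTLL3, a glycylase, had 1.68 ± 0.18, and SVBP, the partner of the vasohibin detyrosinases, had 1.92 ± 0.18. Of 25 microtubule-binding and severing proteins kept, 12 were higher and 1 was lower, with a median of 0.90. MAP7D1 had an MRL of 4.67 ± 0.35 and the end-binding protein MAPRE2 4.52 ± 0.60. FIGNL1, a relative of the severing enzymes, had 2.71 ± 0.23, and MAP2 had 2.64 ± 0.87 at a mean normalized count of only 13.1. Without gradient 2 the higher and lower counts were 9 and 3 for TRiC and prefoldin, 4 and 8 for the modifying enzymes and 14 and 1 for the binding and severing proteins, where 31.4% of all genes were higher and 3818 of 12720 were lower. They did not change in number for the other lists.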

How the data were processed

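Polysome fractions of vehicle-treated HEK293 cells were analysed in 9 libraries. Per the submitters' processing notes, featureCounts assigned the reads on GRCh38. For the aligner and counting options, the sources used here state nothing. The signal deposited by the authors holds gene counts scaled with a size factor for every library. Dividing by each library's smallest step recovered whole reads for 100% of values, at a tolerance of 0.01 reads. The deposited percent is a gene's share over the 3 fractions of a replicate number, recomputed to within 5.5e-08. The authors' deposited MRL score was recomputed to within 4.61e-09 from weights of 1, 2.5 and 6, which were solved from the table.

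The values being normalized, limma 3.58.1 (trend; R 4.3.3) was fitted on log2(signal + 1), with fraction as the only term, to 12720 genes averaging 10 or more recovered reads, with reads in each gradient. A difference on this scale understates the change of low genes. For MRL, limma tested log2 MRL minus the median gene of each gradient. Tests were two-sided. edgeR 4.0.16 and DESeq2 1.42.0 on the recovered reads, other scalings, pseudocounts of 0.5 and 5, no filter, a replicate block and left-out libraries were alternatives. The scripts were tested on simulated data.

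The labels give each replicate number a batch, which was taken to pair the fractions. Deviations of same-numbered libraries from their group means correlated at -0.54 to 0.39, with both signs, so they do not establish the pairing. Sequences, lengths and positions came from GENCODE release 29. Protein sequences were not used here, and the ends of the coding sequences are not reported here. Genes were named by rule: all members, the 5 nearest genes of the leading alpha and beta member, and the 2 highest and 2 lowest by MRL of each pathway list. TUBA8, a row without a symbol, was matched by gene identifier. Members and lists were chosen with earlier results of these data known.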

Additional observations from a re-analysis of the deposited data

How the results depend on the processing

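Tubulins called in heavy polysomes against monosomes numbered 1 to 9 when a replicate or library was left out, and 0 to 9 in heavy against light polysomes. For MRL against the median gene they numbered 2 to 9. With both directions together, counts over all genes then ran from 3137 to 7814 for heavy polysome against monosome. They ran from 562 to 4507 for light polysome against monosome, 0 to 7651 for heavy against light polysome and 3422 to 7264 for MRL. Genes called higher, the direction of the members, were 9.99% to 31.4% for heavy polysome against monosome. They were 0.00% to 29.9% for heavy against light polysome and 9.89% to 29.1% for MRL. With the summed share of light and heavy polysomes in place of MRL, the test called 3 members, TUBA4A, TUBB4B and TUBB6. Over all genes, 19.4% were higher with this share, and TUBA1C lay below the median gene, at -1.80 percentage points. The heavy polysome share in place of MRL, and centring on the mean gene, each called 7, beside 21.1% and 27.8% of all genes higher. Both added TUBA1B (limma, adjusted p = 0.0407 and 0.0287) and TUBB2B (limma, adjusted p = 0.0357 and 0.0372). In light polysomes against monosomes, where no member passed, the direction changed with the libraries left out. The log2 difference ran from -0.50 to 0.30 for TUBA1A, -0.43 to 0.0912 for TUBA1B, -0.42 to 0.57 for TUBA4A, -0.76 to 0.0044 for TUBB, -1.005 to 0.15 for TUBB2A, -0.43 to 0.56 for TUBB2B and -0.65 to 0.0446 for TUBB4B. For TUBA4A it was 0.0197 with TMM scaling. The replicate block changed the call of TUBB2B in both heavy polysome comparisons, to adjusted p = 0.0508 against monosomes and 0.0561 against light polysomes by limma, and no other member's call. In heavy polysomes against monosomes DESeq2 called TUBA1B (adjusted p = 0.043) and did not call TUBB2B (0.0627), nor did edgeR (0.0773). In heavy against light polysomes DESeq2 called all 9, beside 16.5% of all genes higher. TUBB2B missed the threshold there with TMM scaling (limma, 0.0543) and without the filter (limma, 0.0502). The cause of these changes was not tested. Depth limits TUBA4A, with 9 reads in 1 monosome library.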
